A study of Mus musculus with 4 samples.

Results

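Mir142hg (ENSMUSG00000084796) is the host gene of miR-142, and its UMIs were described in 4 single-cell libraries as 1 of the 27998 genes listed there. The gene was taken up because its level differed between the 2 genotypes in these same libraries, so that every difference of Mir142hg between genotypes given here is a description and carries no test. Spleens of 2 mixed chimeras gave the libraries, on day 8 of infection with LCMV Armstrong. Each chimera was a sublethally irradiated Rag1-/- host that had received WT marrow (CD45.1, from B6.SJL mice) and Bcl3-/- marrow (CD45.2) in a 1:1 mixture, on the C57BL/6 background. CD8+ T cells that bound the GP33 tetramer were sorted by genotype, which gave 1 WT and 1 Bcl3-/- library per chimera (WT1 and KO1 from chimera 1, WT2 and KO2 from chimera 2) and n = 2 libraries per genotype. WT and Bcl3-/- cells also differed in donor strain and in the CD45 allele, and these differences and the Bcl3 deletion cannot be told apart. The Rag1-/- hosts make no T or B cells of their own but keep their own myeloid cells.

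A host gene is a transcript from which a microRNA hairpin is cut. The nuclear enzyme Drosha releases the hairpin, Dicer trims it to a short duplex, and 1 strand is loaded on an Argonaute protein and pairs through its seed with sites in the 3′ UTRs of target mRNAs, which are then repressed. miR-142 is known as a microRNA of blood cells, present in nearly all lineages that arise from hematopoietic stem cells. In the 3′ assay used here, UMIs of Mir142hg count transcripts that carry a poly(A) tail. Mature miR-142, which has no such tail, was not measured.

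The annotated gene lies on the plus strand of chromosome 11, from 87755577 to 87757270 (GRCm38, GENCODE vM21, as a long intergenic noncoding RNA). Exon 1 runs from 87755577 to 87755613 (37 bases) and exon 2 from 87757039 to 87757270 (232 bases). The Mir142 hairpin, from 87756864 to 87756927 on the same strand, is in the intron and ends 112 bp before exon 2. Mir142b is annotated across it on the minus strand, from 87756841 to 87756955. Neither hairpin is a row of its own in the counts. The mature products are shown because the lists of targets below rest on their seeds (bases 2 to 8, in capitals). They are RefSeq sequences, and the hairpin has both arms in capitals.
mmu-miR-142a-5p: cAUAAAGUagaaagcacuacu
mmu-miR-142a-3p: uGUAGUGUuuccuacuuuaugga
Mir142 hairpin: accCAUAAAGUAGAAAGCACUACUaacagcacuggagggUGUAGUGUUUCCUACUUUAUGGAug

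The spliced transcript has 269 bases and is shown because it is the annotated form of the gene in GENCODE vM21. Whether the gene model used for the counts has the same form was not checked. Whether the RNA counted was spliced was not measured. The transcript ends 14 bases after an AATAAA hexamer (in capitals, from base 250). Its longest run of A is 3 bases, and none of its 239 stretches of 31 bases occurs in the annotated transcripts of another gene.
Mir142hg transcript: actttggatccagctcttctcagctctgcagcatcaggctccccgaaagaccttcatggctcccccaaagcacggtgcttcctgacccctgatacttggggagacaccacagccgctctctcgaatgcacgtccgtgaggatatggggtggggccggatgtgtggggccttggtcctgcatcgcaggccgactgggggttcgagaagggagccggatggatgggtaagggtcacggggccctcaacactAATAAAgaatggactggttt

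**Figure D1:**
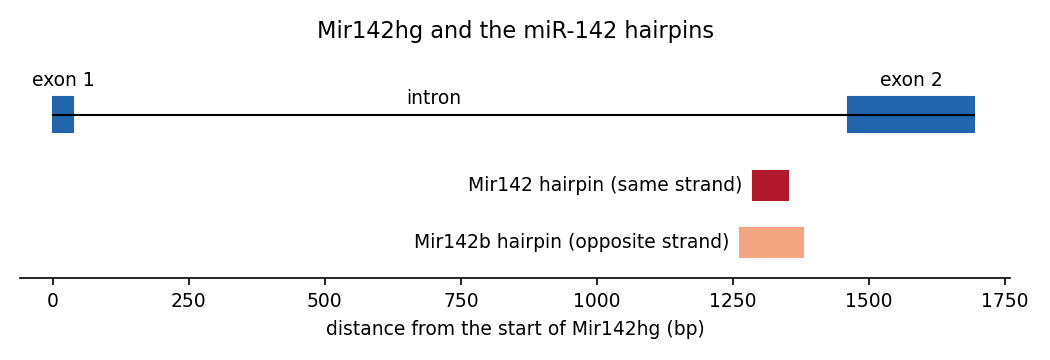
Map of Mir142hg. The x axis is the distance from the start of the gene in bp, blue boxes are the 2 exons, and the boxes below are the Mir142 hairpin on the same strand and the Mir142b hairpin on the opposite strand. Both hairpins lie in the intron, close to exon 2.

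A barcode counted as a cell when it had 500 genes or more and no more than 10% of its UMIs were mitochondrial. There were 4941 such cells for WT1, 8092 for WT2, 5366 for KO1 and 6494 for KO2. Total depth was similar, from 20358780 to 22922219 UMIs per library. Mir142hg was a gene of low level, with 281 and 242 UMIs in the cells of WT1 and WT2, and 1506 and 1767 UMIs in those of KO1 and KO2. The libraries shared between 37 and 63 cell barcodes pairwise, against 36.0 to 71.3 for barcodes drawn at random from the kit's list. Levels are given as CPM, the UMIs of Mir142hg per 1000000 UMIs of the same cells, with exact Poisson intervals at 95% that cover counting error only.

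Cells were classed by UMIs of marker genes, among which Mir142hg had no part. In all, 14342 cells met the T cell list with under 3 UMIs of each other list, 361 were classed as B cells, 228 as plasma cells, 672 as myeloid cells, and 9290 of the 24893 cells were left unclassed. The unclassed cells made up 50.1% of WT1, 15.6% of WT2, 61.4% of KO1 and 34.8% of KO2 cells, and most of them met the T cell list (2469 of 2474 in WT1, 1211 of 1263 in WT2, 3283 of 3295 in KO1, 2248 of 2258 in KO2). The gate therefore removed T cells unevenly between libraries, and values are also given for T cells by ratio, with T list UMIs at least 3 times those of each other list, a rule added after the data had been seen. That rule took 4508 and 7491 cells of the WT libraries, and 4813 and 5987 cells of the Bcl3-/- libraries. Markers that the gate did not use were highest in their own class. Thy1, Lck, Cd5, Cd6 and Lat together had 36.0, 36.5, 37.9 and 38.8 UMIs per 10000 in the T cells of WT1, WT2, KO1 and KO2, and between 4.87 and 6.34 in the B cells. They were higher in plasma cells, at 10.7 to 13.3 per 10000, and had 5.62 to 8.57 in myeloid cells, so that these classes held RNA of T cell genes. Xbp1, Edem2, Creld2 and Txndc5 had between 58.5 and 81.5 per 10000 in plasma cells and between 2.75 and 2.91 in T cells. The held-out B cell markers, among which Cd74 and H2-Aa are not particular to B cells, had 267 to 291 per 10000 in B cells and 202 to 226 in myeloid cells. B, plasma and myeloid cells had passed a sort for tetramer-binding CD8+ T cells, and no doublet caller was run.

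In T cells, Mir142hg was high in both Bcl3-/- libraries and low in both WT libraries. The level was 16.6 CPM in WT1 (116 UMIs, interval 13.7 to 19.9) and 14.3 CPM in WT2 (193 UMIs, 12.4 to 16.5). It was 81.2 CPM in KO1 (465 UMIs, 74.0 to 88.9) and 91.3 CPM in KO2 (1016 UMIs, 85.8 to 97.1). The 2 genotypes did not overlap, a gap for which the gene was chosen, and the 2 libraries of a genotype lay close together. The group means were 15.5 CPM ± 1.61 (SD, n = 2) for WT and 86.2 CPM ± 7.17 (SD, n = 2) for Bcl3-/-. Within chimera 1 the Bcl3-/- level was 4.89 times the WT level (counting interval 3.98 to 6.05) and within chimera 2 it was 6.38 times (5.46 to 7.48). On the log2 scale after TMM scaling, the difference was 2.49 over the 4 libraries, 2.30 in chimera 1 and 2.64 in chimera 2. T cells by ratio had 14.4 and 13.0 CPM in WT1 and WT2 and 71.0 and 85.7 CPM in KO1 and KO2. The unclassed cells, most of them with T list UMIs, had 13.1 and 8.62 CPM in the WT libraries and 66.9 and 77.5 CPM in the Bcl3-/- libraries, and the genotypes did not overlap there either.

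In B cells the level of Mir142hg was near that in T cells, and the genotypes stood apart in the same direction without overlap. The values rest on few UMIs: 17.0 CPM in WT1 and 19.5 CPM in WT2 (4 UMIs each), 75.9 CPM in KO1 (17 UMIs) and 78.9 CPM in KO2 (23 UMIs). The Bcl3-/- level was 4.47 times the WT level in chimera 1 (1.46 to 18.3) and 4.05 times in chimera 2 (1.38 to 16.1). Myeloid cells were lower in each library, at 8.46 CPM in WT1 (7 UMIs), 7.54 CPM in WT2 (6 UMIs), 34.0 CPM in KO1 (31 UMIs) and 41.4 CPM in KO2 (38 UMIs). Their Bcl3-/- level was 4.02 times the WT level in chimera 1 (1.73 to 10.8) and 5.49 times in chimera 2 (2.30 to 15.9). Which myeloid cells were of donor and which of host origin was not measured.

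Plasma cells had the lowest level of the classes in WT1, WT2 and KO2, though not in KO1, and the least even ones. No UMI was found in 388397 UMIs of WT1 plasma cells, where 3 counts would be 7.72 CPM, and 2 UMIs gave 4.47 CPM in WT2. KO1 had 48.6 CPM (17 UMIs, 28.3 to 77.8) and KO2 16.5 CPM (6 UMIs, 6.07 to 36.0). The Bcl3-/- level was at least 6.29-fold higher in chimera 1, with WT1 set at 3 counts, and 3.70 times the WT level in chimera 2 (0.662 to 37.5). Immunoglobulin genes, which dominate the RNA of plasma cells, took at most 0.00156% of the UMIs of plasma cells in these counts, so that they hardly enter the total to which CPM refers.

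**Figure D2:**
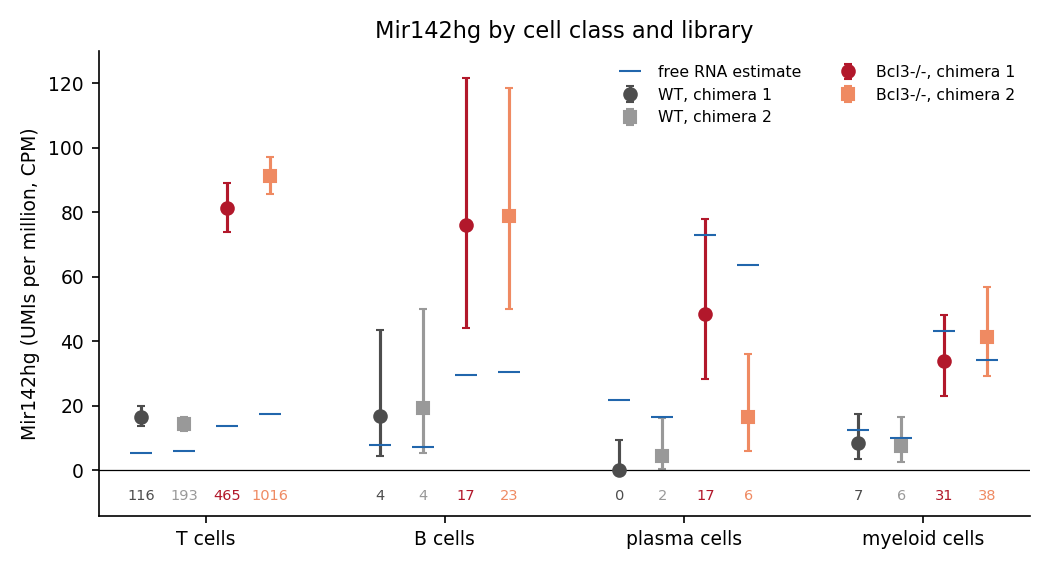
Mir142hg in CPM (y axis) in T, B, plasma and myeloid cells of the 4 libraries. Points are libraries (gray WT, red and orange Bcl3-/-; circles chimera 1, squares chimera 2), bars are exact 95% Poisson intervals, numbers below the axis are Mir142hg UMIs, and blue dashes are the level estimated for free RNA. The Bcl3-/- libraries lie above the WT library of their chimera in each class, and plasma and myeloid cells lie near or below the blue dashes.

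Myeloid cells were split by whether they had more UMIs of granulocyte genes (S100a8, S100a9, Ngp and others) or of monocyte and macrophage genes (Csf1r, Cd68, C1qa and others). Granulocyte-gene cells had 12.7, 5.02, 38.3 and 76.7 CPM in WT1, WT2, KO1 and KO2 on 3, 1, 13 and 25 UMIs. Monocyte-gene cells had 6.81, 8.60, 30.4 and 22.2 CPM on 4, 5, 17 and 13 UMIs. In KO2 the intervals of the subsets did not overlap (49.6 to 113 against 11.8 to 38.0). They overlapped in WT1, WT2 and KO1, where an order was not detectable at this depth. The granulocyte-gene cells of KO2 also had fewer UMIs per cell, with a median of 1745 against 5832, and the part of depth in this difference was not tested.

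The contrast between classes was tested, since it played no part in the choice of the gene. Counts summed per library and class were fitted with edgeR's quasi-likelihood test with the library as a block, and p-values were adjusted by Benjamini-Hochberg over the 6763 genes tested. Against T cells of the same library, plasma cells fell by 1.37 on the log2 scale (SE 0.27, adjusted p = 9.7e-05) and myeloid cells fell by 0.95 (SE 0.18, adjusted p = 4.5e-05). B cells differed by 0.05 (SE 0.24, adjusted p = 0.883), a value that turned to -0.12 without the filter on low counts. In each of the 4 libraries, the plasma and myeloid levels were below the T cell level. The myeloid level was 0.510, 0.527, 0.419 and 0.454 times the T cell level in WT1, WT2, KO1 and KO2. Its counting interval reached past 1 in WT1 (0.201 to 1.08) and WT2 (0.191 to 1.17). The plasma level was 0.312, 0.598 and 0.181 times in WT2, KO1 and KO2, with an interval past 1 in WT2 (0.0375 to 1.14). No UMI was found in WT1 plasma cells. Neither WT library thus resolved the myeloid fall on its own, nor WT2 the plasma fall. The B cell level was 1.02, 1.36, 0.935 and 0.864 times, with counting intervals from 0.545 to 1.30 in KO2, the library with the most UMIs in B cells, and from 0.274 to 2.69 in WT1. Of the genes tested, 37.4% were called in B cells (18.2% lower), 49.1% in plasma cells (23.3% lower) and 58.1% in myeloid cells (29.1% lower), so that a lower level in these classes was common. The plasma value rested on single libraries for its size: without KO1 it was -2.30 and without KO2 -0.96. Without the library block, where the genotype gap enters the spread, the adjusted p was 0.218 for plasma and 0.257 for myeloid cells.

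Free RNA was read from barcodes with 1 to 50 UMIs, too few for a cell. Mir142hg had a higher share there, at 45.3 CPM in WT1 (34 UMIs) and 43.9 CPM in WT2 (27 UMIs), against 169 CPM in KO1 (169 UMIs) and 196 CPM in KO2 (188 UMIs). These levels were 3.26, 3.49, 2.45 and 2.38 times those of all cells of the same library. The share of free RNA in a class was estimated from the UMIs of T list genes, relative to those in the low-UMI barcodes, as if every such UMI in a B, plasma or myeloid cell came from free RNA. At that share, free RNA alone would give 7.85, 7.19, 29.5 and 30.4 CPM of Mir142hg in the B cells of WT1, WT2, KO1 and KO2, below the 4 levels measured. The B cell levels of WT1 and WT2 rest on 4 UMIs each, too few to place them above free RNA. Free RNA would give 12.5, 9.97, 43.3 and 34.2 CPM in myeloid cells, where the level measured was lower in WT1, WT2 and KO1 and higher in KO2. It would give 21.8, 16.7, 72.8 and 63.7 CPM in plasma cells, above the 4 levels measured. For T cells by ratio, with the share taken from myeloid list genes instead, it would give 9.69, 7.87, 28.5 and 29.2 CPM, below the levels measured. In the plasma cells of WT1, WT2 and KO2 the estimate lay above the whole interval of the measured level (up to 9.50, 16.1 and 36.0 CPM). Whether the share or the level of Mir142hg assumed for free RNA was too high there was not tested. Free RNA and expression in the cells cannot be told apart in the plasma and myeloid values, the difference between genotypes included. The same holds for the B cell values of WT1 and WT2. The granulocyte-gene cells of KO2, which had the highest of the myeloid subset values, lay above the estimate, with an interval from 49.6 CPM against 37.2 CPM for free RNA. In WT1, WT2 and KO1, granulocyte-gene cells lay below it, at 12.7, 5.02 and 38.3 CPM against 13.2, 10.9 and 45.6 CPM. Monocyte-gene cells had 6.81, 8.60, 30.4 and 22.2 CPM in WT1, WT2, KO1 and KO2. Their estimates were higher in each library, at 12.3, 9.50, 40.5 and 32.4 CPM.

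Within single T cells, UMIs of Mir142hg were sparse. At least 1 UMI was found in 4.89% and 2.94% of the T cells of WT1 and WT2, against 22.4% and 22.2% of those of KO1 and KO2, and no cell had more than 4. With each cell thinned to 1000 UMIs, the shares were 1.92% (exact binomial interval 1.39 to 2.59) and 1.52% (1.23 to 1.86) in WT1 and WT2, and 7.31% (6.14 to 8.64) and 9.21% (8.32 to 10.2) in KO1 and KO2. Thinning left out 19, 186, 4 and 12 shallower T cells in the same order. In myeloid cells, where the level was near that estimated for free RNA, the thinned shares were 1.57%, 1.33%, 1.09% and 5.32%. A Poisson distribution was taken at the library's T cell level, with a mean for each cell in proportion to its UMI total. It would put 23.1% of KO1 and 22.8% of KO2 T cells at 1 UMI or more, against the 22.4% and 22.2% found. For cells with 2 or more UMIs it would give 3.09% and 3.04%, against 3.48% and 3.47%. In WT1 it would give 0.149%, against 0.362% found (8 cells), and in WT2 0.0497%, against 0.0308% (2 cells). In the Bcl3-/- libraries the shares found were thus close to those of a Poisson distribution, with somewhat more cells of 2 or more UMIs, whereas in WT1 such cells were more frequent than that distribution gives.

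T cells by ratio were then grouped by markers of a state, with at least 2 UMIs from at least 2 of its genes. Some of these markers are also genes that the study showed for its clusters. Cells in cycle (Mki67, Top2a, Birc5, Cdk1, Ccnb2) had the lowest level of the states in 3 of the 4 libraries, at 7.15 and 10.1 CPM in WT1 and WT2 and 48.4 and 54.8 CPM in KO1 and KO2. Cells that met none of the 3 states described here had 15.7, 14.3, 76.2 and 94.3 CPM. The intervals of these groups did not overlap in WT1, KO1 and KO2 and overlapped in WT2 (6.53 to 14.9 and 12.1 to 16.7). Terminal effector cells (Zeb2, Cx3cr1, Klrg1, S1pr5) had 15.6, 13.7, 71.6 and 78.8 CPM. Interferon-responding cells (Isg15, Ifit1, Ifit3, Irf7, Isg20) had 14.7, 8.37, 61.3 and 72.2 CPM. In KO2 the intervals of terminal effector (71.0 to 87.3) and interferon-responding cells (62.8 to 82.7) also lay below that of cells of no state (88.6 to 100). In WT1, WT2 and KO1 the intervals of both states overlapped with it. In each state, the lower of the 2 Bcl3-/- values was above the higher of the 2 WT values. Cells in cycle held more UMIs, with a median of 5409.5 against 3360.5 in cells of no state in WT1 and 5443.5 against 3548 in KO1. Under the stricter T cell gate the order did not hold in KO1, where cells in cycle had 87.9 CPM (58.9 to 126) and cells of no state 83.0.

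**Figure D3:**
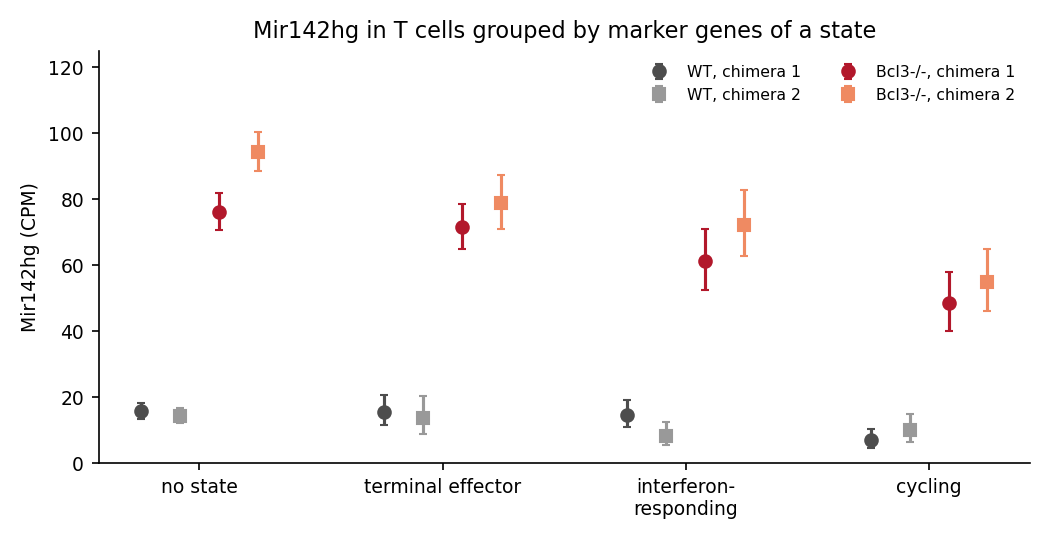
Mir142hg in CPM (y axis) in T cells by ratio, grouped by markers of a state (x axis). Points are the 4 libraries and bars are exact 95% Poisson intervals. The Bcl3-/- points (48.4 to 94.3 CPM) lie above all WT points (7.15 to 15.7 CPM).

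The level also moved with the depth of the cell. In WT1, T cells by ratio with 1500 to under 3000 UMIs had 21.6 CPM, those with 3000 to under 6000 had 13.1 CPM and those with 6000 or more had 11.97 CPM. The same groups had 14.0, 8.48 and 5.06 CPM in WT2, 93.2, 70.4 and 57.0 CPM in KO1, and 99.9, 77.9 and 62.5 CPM in KO2. Deeper cells thus had a lower share of Mir142hg in each library. Within the group of 3000 to under 6000 UMIs, the Bcl3-/- level was 5.39 times the WT level in chimera 1 and 9.18 times in chimera 2. It was 4.32 and 7.11 times from 1500 to under 3000 UMIs, and 4.76 and 12.4 times from 6000 UMIs on, where WT2 had 5 UMIs of Mir142hg. WT2 was the library with the shallowest cells, with a median of 2019 UMIs against 3571 in WT1, 3620.5 in KO1 and 2948 in KO2. Below 1500 UMIs, where KO1 had only 2 UMIs of Mir142hg, the ratio was 1.74 in chimera 1 and 9.19 in chimera 2. Among the clusters of T cells, found in each library without Mir142hg, the median level was 13.2, 11.5, 73.6 and 84.1 CPM in WT1, WT2, KO1 and KO2. The lowest level was 6.35, 7.85, 41.6 and 42.7 CPM in the same order. The lowest cluster of WT1 (6 UMIs of Mir142hg) was led by Hist1h2ap, Hbb-bs and Hba-a1, and that of KO1 (52 UMIs) by Prss34, Mcpt8 and Fcer1a. Hemoglobin and mast cell protease genes are not T cell genes, so that these clusters may not hold T cells alone. Their leading genes also held Nusap1 in WT1 and Lig1 in KO1. Among the leading genes of the lowest cluster were Hist1h2ap and Rrm2 in WT2 (18 UMIs) and Cdc20 and Ccnb2 in KO2 (24 UMIs). Ccnb2 is also a marker of the cells in cycle above. The highest level was 37.1 CPM for WT1, 23.4 for WT2, 84.4 for KO1 and 148 for KO2 (349 cells, 96 UMIs of Mir142hg). The highest clusters of WT1, WT2 and KO2 held 1793, 1368 and 1855 UMIs per cell, and that of KO1 held 3362. Those of WT1, WT2 and KO1 were led by Mllt6 and Madd, by Sfi1 and Adcy7, and by Wfikkn2 and Ier3. The part of depth and of free RNA in these differences was not tested.

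**Figure D4:**
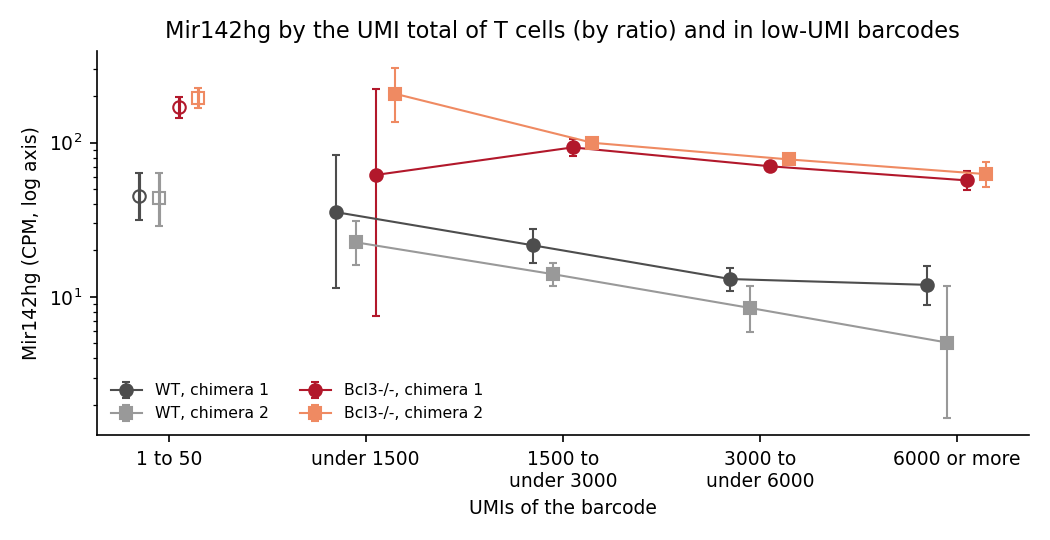
Mir142hg in CPM (y axis, log scale) against the UMI total of the barcode (x axis). Filled points joined by lines are T cells by ratio, open points are barcodes with 1 to 50 UMIs, and bars are exact 95% Poisson intervals. From 1500 UMIs on, the level was lower in deeper cells in each library, and the Bcl3-/- libraries stayed above the WT libraries.

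The next question was which other genes around miR-142 differed between the genotypes in T cells. Bcl3, on chromosome 7, had 28.9 and 105 CPM in WT1 and WT2 and 21.3 and 81.2 CPM in KO1 and KO2 (CPM after TMM scaling, as in all values of this comparison). Its level differed more between the chimeras than between the genotypes. The difference of -0.37 (log2, SE 0.64) did not pass edgeR's quasi-likelihood test (adjusted p = 0.849), whereas with chimera as a block Bcl3 fell by 0.39 (adjusted p = 0.0148). Which exons the deleted allele lacks is not given in the sources used here, so that 3′ UMIs of Bcl3 do not check the labels. The fit over all genes called 32 of 10311 genes (0.31%), 25 higher (0.242%) and 7 lower (0.0679%) in Bcl3-/-. With chimera as a block it called 940 genes (9.12%), 454 higher (4.4%) and 486 lower (4.71%). DESeq2 called 104 of 9311 genes (1.12%), 67 higher (0.72%) and 37 lower (0.397%). WT and Bcl3-/- cells of a chimera come from 1 animal, and both edgeR fits are given where they differ.

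Of the 17 listed genes within 250 kb of Mir142hg, 7 passed the filter on low counts, and 0 were called, with or without the block or with DESeq2, where 0.31%, 9.12% and 1.12% of all genes were called. With 7 genes, a count of 0 is near these shares and no result about the neighbours. At an unadjusted p under 0.05 there were also 0, against 13.8% of all genes. Supt4a, a transcription elongation factor 11954 bp before the gene, had 411, 399, 430 and 384 CPM in WT1, WT2, KO1 and KO2 (log2 difference 0.01, SE 0.10). Bzrap1, which starts 3271 bp after the gene, had 15, 15, 9 and 24 UMIs (0.31, SE 0.47, adjusted p = 0.82). Mtmr4, a lipid phosphatase, had 3.81, 2.78, 2.53 and 3.20 CPM (-0.13, SE 0.35, adjusted p = 0.904). Mpo, the myeloperoxidase of granulocytes, had 2.35, 1.24, 0.541 and 0.866 CPM on 16, 17, 3 and 10 UMIs (-1.16, SE 0.54, adjusted p = 0.396). Over the 12 settings with a value for Mpo, its difference ran from -1.64 to 1.18, so that the direction is not settled. Of the 4 named neighbours, only Supt4a had counts high enough for a standard error as small as 0.10, and the others rest on 3 to 38 UMIs per library.

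Of 23 listed genes of the microRNA machinery, 20 were tested and 0 were called in the fit without a block, with a median log2 difference of -0.03 against 0.01 over all genes. At an unadjusted p under 0.05 there were 2 of 20, against 13.8% of all genes, and DESeq2 called 0, where 0.31% and 1.12% of all genes were called. Ddx5, a helicase cofactor of Drosha, had 686, 700, 636 and 669 CPM (-0.09, SE 0.10, adjusted p = 0.75). Srsf3, a splicing factor that also aids hairpin recognition, had 322, 333, 289 and 301 CPM (-0.15, SE 0.09, adjusted p = 0.508). Ran, the GTPase that drives nuclear export of hairpins with exportin 5, had 388, 390.5, 323 and 323 CPM (-0.27, SE 0.09, adjusted p = 0.274). With chimera as a block, 2 of the 20 were called, a share near the 9.12% of all genes called in that fit, so that the count is no result about the list. Ran fell by 0.27 (adjusted p = 0.013) and Tnrc6a, a partner of Argonaute in repression, rose by 0.36 (adjusted p = 0.0282). Tnrc6a had 44.9 and 45.1 CPM in the WT libraries and 63.7 and 53.7 CPM in the Bcl3-/- libraries. The core enzymes, named after their values had been seen, were Drosha (-0.11, adjusted p = 0.865), Dicer1 (-0.32, adjusted p = 0.437) and Ago2 (0.02, adjusted p = 0.962), and none passed either edgeR fit.

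Of 20 other host genes of microRNAs, 11 were tested and 0 were called without a block (3 of 11 at an unadjusted p under 0.05, against 13.8% of all genes, and 0 with DESeq2), with a median of -0.05. With chimera as a block, 1 rose and 2 fell, 3 of 11, set beside 9.12% of all genes called in that fit and 0.31% without the block. Mir155hg, the host of miR-155, had 5.57, 8.47, 2.89 and 4.24 CPM on 38, 116, 16 and 49 UMIs, and fell by 0.98 with the block (adjusted p = 0.0202, against 0.268 without it). Mcm7, a replication helicase subunit whose introns hold the miR-106b cluster, had 38.1, 51.5, 28.3 and 34.4 CPM and fell by 0.52 with the block (adjusted p = 0.00427). It is a gene of cells in cycle, which made up 7.39% and 6.90% of the T cells of this fit in WT1 and WT2 and 4.68% and 5.35% in KO1 and KO2. Among T cells by ratio the shares were 13.4%, 8.62%, 8.89% and 8.50%, with hardly a gap in chimera 2. The part of cells in cycle in the difference of Mcm7 was not tested. Ctdsp1, a phosphatase and host of miR-26b, had 76.4, 68.9, 92.2 and 89.5 CPM and rose by 0.33 with the block (adjusted p = 0.0202). The 3 host genes with the highest CPM were Hnrnpk (0.08, SE 0.11), Evl (-0.05, SE 0.09) and Copz1 (-0.03, SE 0.10). The differences of the 11 genes ran from -0.96 to 0.32.

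Genes widely reported as targets of miR-142 were read as a list, since repression by the mature microRNA would act on them. Of 20 such genes, 19 were tested, and 0 were called without a block, with the block or with DESeq2, where 0.31%, 9.12% and 1.12% of all genes were called. At an unadjusted p under 0.05 there were 2 of 19, against 13.8% of all genes, Ash1l (-0.35, adjusted p = 0.274) and Socs1 (-0.32, adjusted p = 0.315), the only ones by that measure and named for it. The median log2 difference was -0.02 against 0.01 over all genes, and the values ran from -0.98 to 0.21. A canonical 8mer site was found in the annotated 3′ UTR of 11 of the 20 genes. Rac1, a GTPase of the cytoskeleton, had 460, 451, 474 and 467 CPM (0.05, SE 0.09, adjusted p = 0.865). Clint1, an adaptor of clathrin-coated vesicles, had 101, 104, 111 and 115 CPM (0.14, SE 0.09, adjusted p = 0.517). Pde3b, which breaks down cyclic nucleotides, had 36.7, 41.7, 34.1 and 41.2 CPM (-0.05, SE 0.13, adjusted p = 0.894). Their sites are shown with the 8mer in capitals, as the stretches to which the seeds above pair, from the annotated transcripts (GENCODE vM21), and Pde3b held none.
Rac1, site of miR-142a-3p: agattactttACACTACAttgtacatgg
Clint1, site of miR-142a-5p: tcactctctaACTTTATActtctttctc

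Across the annotation, the 8mer of miR-142a-5p (ACTTTATA) occurred in the 3′ UTR of 997 of 20809 listed genes (4.79%) and that of miR-142a-3p (ACACTACA) in 588 (2.83%), searched on the transcript strand only. Of the 1534 genes with either, 795 were tested in T cells. Their median log2 difference was 0.04 against 0.01 over all genes, and 54.2% of them had a value above 0 against 50.9% of all genes. At an unadjusted p under 0.05 there were 95 of 795, against 13.8% of all genes. Without a block, 1 was called, where 0.31% of all genes were, so that the count is no result about the list. It was Zeb2 (named as the only one), a transcription factor of terminal effector cells, which rose by 0.80 (SE 0.11, adjusted p = 0.0357). Zeb2 had 51.8 and 47.0 CPM in WT1 and WT2 and 91.8 and 80.9 CPM in KO1 and KO2. It is also among the markers of terminal effector cells above, which made up 14.6% and 8.13% of the T cells of this fit in the WT libraries and 30.8% and 23.03% in the Bcl3-/- libraries. With chimera as a block, 27 were called higher and 26 lower, 53 of 795, set beside 9.12% of all genes. A match of the letters says nothing of binding, and the list was described without a test of its own.

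**Figure D5:**
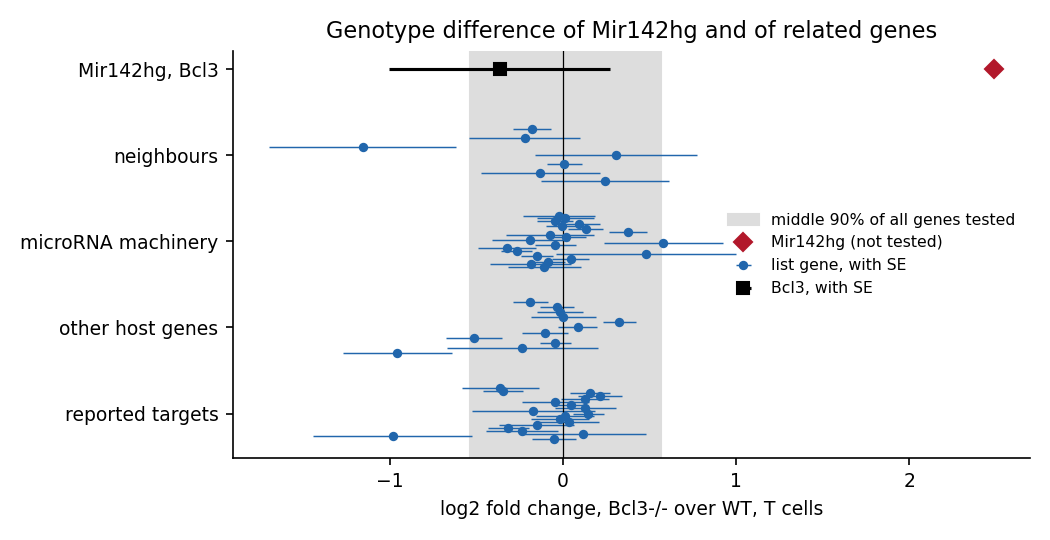
Log2 difference between Bcl3-/- and WT T cells (x axis) for Mir142hg, Bcl3 and the tested genes of 4 lists. Points are genes, bars are standard errors derived from the F statistic of edgeR's test, and the gray band holds the middle 90% of all genes tested (-0.54 to 0.57). The genes of the 4 lists lie between -1.16 and 0.58. Mir142hg lies at 2.49, a place fixed by its choice for this difference.

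Genes whose level was most like that of Mir142hg were found by Pearson's r of log2(CPM + 1) over the 16 sums of library and class, among 6762 genes, as a description. The 16 points share 4 libraries, their depth and the free RNA in them. Mthfs, an enzyme of folate metabolism, was the nearest (r = 0.886). In T cells it had 15.6 and 12.4 CPM in WT1 and WT2 and 33.9 and 38.0 CPM in KO1 and KO2, a log2 difference of 1.39. A likeness to Mir142hg over these libraries takes in the gap between genotypes, so that no test is given for these genes. Nmt2, Rps26-ps1, Gm8730, Tap2, Syf2, Klf3, Sarnp, Sp110 and Rpl6l followed, with r from 0.831 to 0.812. Their log2 differences in T cells ran from 0.06 for Syf2 to 1.48 for Rps26-ps1. Rps26-ps1, Gm8730 and Rpl6l resemble ribosomal protein genes, and how reads were divided between such copies is uncertain. Klf3, a transcription factor, had 68.1, 74.9, 106 and 103 CPM in T cells, and Tap2, a subunit of the peptide transporter of antigen presentation, had 118, 95.8, 132 and 195 CPM. Over the 4 T cell sums alone, Fbxo42, Gm15952, Zbtb14, Zfp280c and Impad1 were nearest, but 85 of 10310 genes had an r over 0.99 there, so that these 4 points do not single genes out.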

How the data were processed

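The study sorted GP33 tetramer-positive CD8+ T cells and prepared 3′ libraries with the 10x Genomics kit (version 2). The deposited values are counts of UMIs for each gene in each barcode of the kit, with no normalization and no cell filter by the authors. The submitters' processing notes name bcl2fastq 2.17, Cell Ranger 2.2.0 and mm10. The genes Trac, Trbc2 and Ighd are not rows of the counts. Of 27998 identifiers, 27645 were found in GENCODE vM21.

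Counts were summed per library, or per library and class, and the quasi-likelihood test of edgeR 4.0.16 was run under R 4.3.3, after filterByExpr and TMM scaling, with Benjamini-Hochberg adjustment and a threshold of 0.05. That test returns no standard error (SE), which was taken as the absolute log2 difference divided by the square root of its F statistic. DESeq2 1.42.0, other filters, gates, thinning and each library left out were tried. Clusters came from Seurat 5.3.0 (2000 variable genes, 15 components, resolution 0.8). Intervals used SciPy 1.17.1. The fits were tested on simulated data.

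Numbers 1 and 2 pair the libraries, since both genotypes of a number come from 1 animal. As a check, the difference of the WT libraries was set against that of the Bcl3-/- libraries over 6730 genes (r = 0.434, a description). With 2 animals, p-values measure only the spread between these samples.

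Mir142hg, the lists and the tests were chosen with earlier results of these data known. Genes named are those called and otherwise the 3 of a list with the highest mean CPM, for neighbours the 2 nearest on either side among those that passed the filter on low counts, and for likeness the 10 and 5 highest. Mir142hg was left out of every list. A further T cell state is not reported here.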

Additional observations from a re-analysis of the deposited data

Results flagged for a closer look

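Mir142hg in barcodes with 1 to 50 UMIs, which are not cells and serve only as the measure of free RNA, was above the WT level in both Bcl3-/- libraries, at 169 CPM in KO1 and 196 CPM in KO2, against 45.3 CPM in WT1 and 43.9 CPM in WT2. The ratio was 3.74 in chimera 1 (2.58 to 5.58) and 4.46 in chimera 2 (2.97 to 6.94), counting error only. The difference is that of the genotypes, for which the gene was chosen, so that no test is given.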

How the results depend on the processing

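The difference of Mir142hg between genotypes in T cells lay between 2.33 and 2.61 (log2) under 14 alternatives, and from 2.33 to 2.61 with 1 library left out. The number of genes called moved from 32 to 940 with the replicate block, 104 with DESeq2, 297 without a filter on low counts and 56 with 1750 T cells per library, each thinned to 1000 UMIs, which changes the number of cells and the depth at once. It ran from 2 (without KO2) to 357 (without WT1) with 1 library left out. Under the replicate block, list calls moved from 0 to 2 for the machinery, from 0 to 3 for other hosts, and from 1 to 53 for genes with an 8mer. Genes with an 8mer gave 3 calls with DESeq2, 11 without a filter and 2 after thinning. With 1 library left out they gave 0 to 15 and other hosts 0 to 1. Calls among neighbours and reported targets stayed at 0 in each alternative. The cause of these moves was not tested.

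For B cells against T cells the sign changed without a filter on low counts (-0.12, adjusted p = 0.934). The range was -0.12 to 0.33, with adjusted p from 0.532 to 0.995. With no replicate block, plasma cells had -1.42 (adjusted p = 0.218) and myeloid cells -0.91 (adjusted p = 0.257), and both kept their call in the other 13 alternatives. With 1 library left out, plasma ran from -2.30 to -0.96 and myeloid from -0.98 to -0.88. Alternatives chosen after seeing the data were T cells by ratio (plasma -1.20, myeloid -0.79) and taking away free RNA at its estimated share. The latter gave -9.95 for plasma and -3.45 for myeloid cells, fitted to counts most of which are at or near 0, and no measure of size. With free RNA at 5% and 10% taken away, plasma had -1.75 and -2.17 and myeloid -1.20 and -1.53. Low depth limits B, plasma and myeloid values, which rest on 48, 25 and 82 UMIs over the 4 libraries. The T cell gate kept 32.7% of KO1 cells and 80.3% of WT2 cells.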

Other observations

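Host genes of small nucleolar RNAs, another kind of noncoding transcript that carries small RNAs in its introns, were looked up by symbol after the data had been seen. Of 7 such symbols in the counts (Snhg with a number, or Gas5), 4 passed the filter in T cells. Of these, 1 was called, where 0.31% of all genes were, and 2 with chimera as a block, where 9.12% were, a list chosen after the fact that gets no test. Snhg9 rose by 2.16 (log2, adjusted p = 0.0265 by edgeR's quasi-likelihood test), from 2.79 and 2.92 CPM in WT1 and WT2 to 10.3 and 14.8 CPM in KO1 and KO2. Snhg6 had a difference of 0.69 (adjusted p = 0.287) and rose only with chimera as a block (adjusted p = 0.0125). Snhg12 (0.33, adjusted p = 0.643) and Snhg20 (-0.12, adjusted p = 0.694) passed neither fit.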
